A study of Mus musculus with 52 samples.

Results

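The comparison described here sets metformin given together with leucine against plain drinking water, after 14 d of reloading that followed hindlimb unloading. It holds 8 of the 52 libraries of the series: the 4 libraries whose titles name the combination at 14 d (replicates 1, 3, 4 and 6) and the 4 whose titles name the 14 d water control (replicates 1, 3, 4 and 5). All 8 came from gastrocnemius muscle of aged male C57BL/6 mice of 22 to 24 months, and all had been unloaded and then reloaded, the water controls included. The agents were given in the drinking water, and neither their doses nor the day on which they were started are in the labels. Values for 4 libraries each of metformin alone and leucine alone at 14 d, of water and the combination at 7 d, and of ambulatory mice on water that were never unloaded are given beside the comparison. The labels do not say that every library came from its own mouse, so p-values measure the spread between libraries. In the main fit that spread was pooled over the 13 groups of the series and not taken from these 8 libraries alone.

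Gastrocnemius is a calf muscle made mostly of fast, glycolytic fibres. Muscle that carries no load loses protein and mass, and regains them on reloading through protein synthesis, which needs ribosomes, and through a fall in breakdown by ubiquitin ligases and the proteasome. Leucine is the amino acid that most directly activates mTORC1, the kinase complex that drives translation and ribosome production. Metformin, a drug for type 2 diabetes, inhibits complex I of the mitochondrial respiratory chain and can activate the energy sensor AMPK, which restrains mTORC1.

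Of 16668 genes tested, 119 changed in the combination against water at an adjusted p under 0.05, which is 0.714% of those tested. In this edgeR quasi-likelihood test with Benjamini-Hochberg adjustment, 62 rose (0.372%) and 57 fell (0.342%). Messages of cytosolic ribosomal proteins were concentrated among the genes that fell, with 18 of the 78 measured lower and 0 higher. Of the transcripts of the mitochondrial genome, 9 of 13 protein subunits and both ribosomal RNAs rose, and 0 of 15 tRNAs passed. Outside these groups, 17 nuclear protein-coding genes rose and 35 fell of 13289. The genes that fell included those for ubiquitin B, for the glycogen-targeting subunit Ppp1r3c, for the clock factor Arntl and for the stress-induced phosphatase subunit Ppp1r15a. Of 32 protein-coding genes of muscle growth, breakdown, matrix and nutrient sensing that were looked at whatever their result, among them Pax7, Col1a1, Ddit4, Fbxo32 and Ppargc1a, 0 passed in the main edgeR fit. At an unadjusted p under 0.05, 2 were higher and 4 lower, where 6.05% and 4.9% of all genes were. Their log2 fold changes ran from -0.53 for Trim63 to 2.42 for Timp1, and the smallest adjusted p was 0.112. Some of the 32 passed in other fits, among them Myod1 and Eif4ebp1 in the fit without combination 1.

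The count of 119, from the fit over all 52 libraries, changed with the libraries fitted. In a fit of the 8 libraries alone 2 of 14559 genes passed, n-R5-8s1 and mt-Nd4l (614 at an unadjusted p under 0.05), and none of the other calls among the 119 was kept. With the 5.8S ribosomal RNA level of each library as a covariate 0 genes passed in edgeR (880 at an unadjusted p under 0.05). That level did not overlap between water (0.294 to 0.998 CPM) and the combination (16.6 to 33.03 CPM). The fit with this covariate therefore cannot tell the level apart from the treatment.

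**Figure D1:**
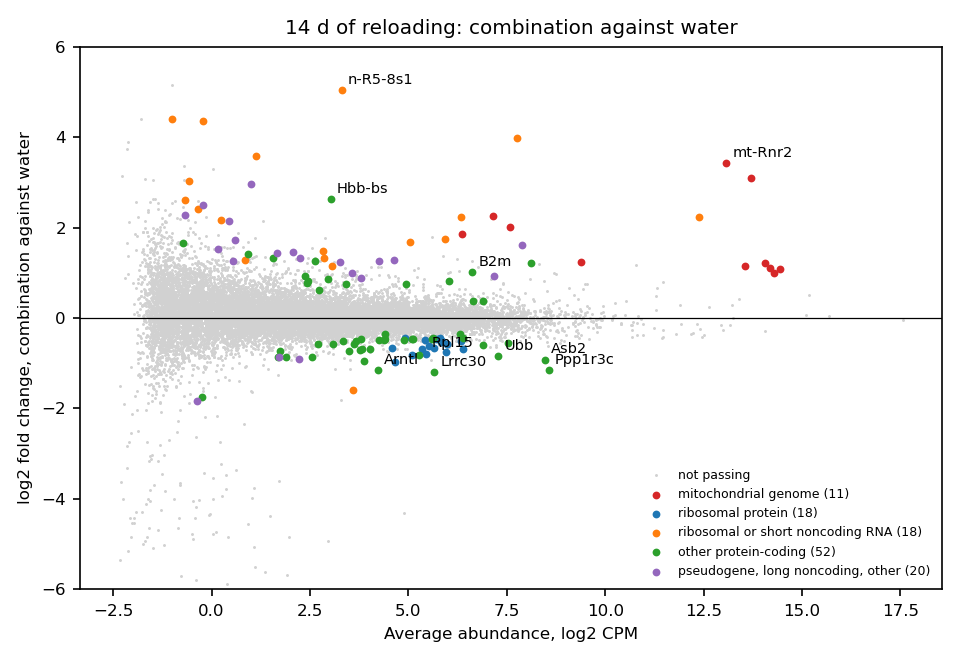
Each point is 1 gene, by its average abundance (log2 CPM, read counts brought to a common library size with TMM factors, x) and its log2 fold change in the combination against water at 14 d (y); coloured points passed at an adjusted p under 0.05, with the number in each class in the key. Ribosomal protein genes that passed lie below 0 and mitochondrial and most short noncoding transcripts above it; 6 genes that did not pass lie beyond the y axis.

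Regulatory sequence is known in outline for ribosomal protein genes and for Arntl, and it is shown here for the genes the results turn on. Ribosomal protein messages begin with a run of pyrimidines at the cap, the 5′ terminal oligopyrimidine tract, through which mTORC1 signalling acts on their translation and stability. The lines below give 30 bases of the 5 ribosomal protein genes that fell and hold a pyrimidine run near the listed start, in capitals. Sequences are GRCm38.p6 with RefSeq start sites, written on each gene's own strand. A run was defined as a C followed by unbroken C or T, 6 or more bases in all. It had to begin within 10 bases of the listed start, and a beginning before that start was accepted. The Rpl6 run both begins and ends before the listed start, so by that start it is not part of the message.
Rpl15 (chr14:18270967-18270996): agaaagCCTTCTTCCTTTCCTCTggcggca
Rpl35 (chr2:39005115-39005144): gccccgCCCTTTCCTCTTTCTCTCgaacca
Rpl6 (chr5:121204486-121204515): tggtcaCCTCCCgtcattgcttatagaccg
Rplp2 (chr7:141447641-141447670): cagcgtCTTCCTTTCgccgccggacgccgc
Rps21 (chr2:180257371-180257400): gacccgCCCTCCTgcccaatagtgctgcgg

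A run so defined was present in 5 of the 13 ribosomal protein genes that fell and have a promoter entry (38.5%), Rpl6 included. It was present in 32 of 57 tested ribosomal protein genes with an entry (56.1%), in 12 of 31 other protein-coding genes that fell (38.7%) and in 2642 of 11046 tested genes (23.9%). The share among the ribosomal protein genes that fell was below that of their family, a difference that was not tested. Arntl encodes BMAL1, the partner of CLOCK in the circadian activator, and its promoter is a textbook target of the nuclear receptors ROR and REV-ERB. The pattern searched, on both strands, was 1 fixed form of the ROR response element. Its letters are the capitals below, with any base allowed in the place next to last. The promoter entry of Arntl holds it at 2 places, shown on the plus strand (GRCm38.p6).
Arntl (chr7:113207491-113207520): gattggtcggAAAGTAGGTTAgtggtgcga
Arntl (chr7:113207527-113207556): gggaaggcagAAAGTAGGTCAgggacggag
The pattern was present in 8 of 11046 tested genes (0.0724%) and in 1 of 16 clock genes with an entry, Arntl itself. Because its letters are those of the Arntl places, finding it in Arntl is not a test. Genes without it can hold other forms of the element, which were not searched. A match describes letters in a window of 300 bases and is not evidence of binding.

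The libraries differed in composition along the same line as the groups. The share of counts on the mitochondrial genome was 8.31 to 11.7% in the water libraries and 11.4, 22.8, 18.3 and 29.2% in combination libraries 1, 3, 4 and 6, against 14.9 to 17.9% in ambulatory mice. The 5.8S ribosomal RNA gene n-R5-8s1 was at 0.294 to 0.998 CPM in water and 16.6 to 33.03 in the combination. Ambulatory libraries stood at 7.64 to 14.5 CPM, metformin alone at 11.6 to 23.04 and leucine alone at 9.15 to 26.9. Among these 14 d groups the water libraries were the ones below the ambulatory range, and all 16 libraries at 7 d lay below it too (0.379 to 7.39 CPM). Ribosomal RNA was depleted during library preparation, and the part that this composition has in the results below was not tested. Combination 1 stood apart from the other 3 combination libraries in 8.11% of tested genes, against at most 3.25% for any other of the 8. Total counts ran from 16344540 to 22797190 in water and from 18300279 to 21929774 in the combination. Fast-fibre genes such as Myh4 (41587 to 62686 CPM in water and 37660 to 77125 in the combination) were abundant in all 8.

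**Figure D2:**
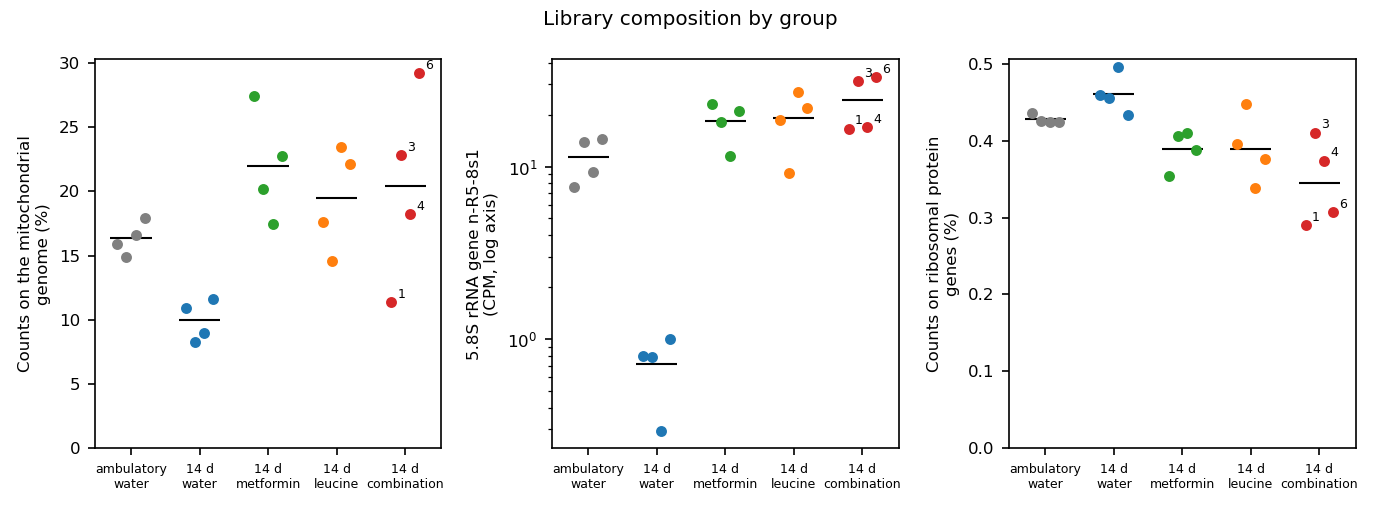
Points are single libraries and lines are group means, for the share of counts on the mitochondrial genome (%, left), the 5.8S rRNA gene (CPM on a log axis, middle) and the share on cytosolic ribosomal protein genes (%, right). The water libraries at 14 d are at 8.31 to 11.7%, where combination 1 (11.4%) also lies, and are the lowest of those drawn for the 5.8S gene (0.294 to 0.998 CPM); combination libraries are labelled by replicate.

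Ribosomal proteins build the large (Rpl) and small (Rps) subunits of the cytosolic ribosome. Rpl15, a large-subunit protein, was at 52.2, 59.4, 58.4 and 44.1 CPM in water libraries 1, 3, 4 and 5 and at 30.4, 32.3, 32.4 and 28.9 CPM in combination libraries 1, 3, 4 and 6. All 4 combination libraries lay below all 4 water libraries. Its log2 fold change was -0.79 (SE 0.13; edgeR adjusted p = 0.0005). Rplp2, a protein of the stalk that recruits elongation factors, was at 37.6, 41.5, 43.7 and 31.8 CPM in water and 25.3, 26.6, 19.2 and 16.1 CPM in the combination. Again the groups did not overlap, and its log2 fold change was -0.82 (SE 0.16, edgeR adjusted p = 0.0037). Lack of overlap was required by the rule that named Rplp2 and many of the genes below, so it adds no support to their calls. Rps21, of the small subunit, was at 26.5, 33.4, 32.6 and 22.7 CPM in water and 11.9, 16.1, 16.7 and 13.9 CPM in the combination, a log2 fold change of -0.97 (SE 0.19, edgeR adjusted p = 0.006). The reads of Rpl15 can mix with those of Nkiras1, which overlaps it on the opposite strand, because the strand setting of the counting is not stated. Ribosomal protein genes also have many processed pseudogenes, which can take some of their reads.

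Across the family the median log2 fold change was -0.36, against 0.03 over all genes tested. The 18 that fell are 23.1% of the 78, where 0.342% of all genes tested fell. At an unadjusted p under 0.05, 41 of the 78 were lower and 2 higher, where 4.9% and 6.05% of all genes were. The summed share of counts on these genes was 0.433 to 0.495% in water and 0.291, 0.410, 0.374 and 0.307% in combination libraries 1, 3, 4 and 6, against 0.424 to 0.437% in ambulatory mice. Rpl10, Rpl15, Rpl9 and Rplp2 passed whichever of the 8 libraries was left out. The number lower dropped to 7 without water 3, 6 without water 4, 10 without combination 6, 9 with the replicate number as a block and 0 in the fit of the 8 libraries alone. The family did not keep 1 direction: without combination 1, 30 members were lower and 11 higher, among the higher Rpl4, Rpl19, Rpl23 and Rps24 (log2 fold changes of 0.47, 0.58, 0.57 and 0.41). In that fit 14.7% of all genes passed.

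Genes that fell were also short. The median exonic length of the 53 nuclear protein-coding genes that fell was 2360 bases, and 2644 for the 35 that are not ribosomal protein genes, against 4564 for the 13367 tested and 4759 for the 17 that rose. In 4 sets of nearly equal size ordered by exonic length, from the shortest to the longest, 36, 13, 1 and 3 genes fell. The median log2 fold change went from -0.05 in the shortest set to 0.04 in the longest. The part that transcript length has in these calls was not tested.

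The mitochondrial genome encodes 13 subunits of the respiratory chain and ATP synthase, with 2 ribosomal RNAs and the tRNAs that translate them. Its small ribosomal RNA, mt-Rnr1, was at 4364, 3586, 3952 and 4907 CPM in water and at 8209, 35288, 22020 and 79130 CPM in the combination. Every combination library lay above every water library, with combination 1 nearest to them. Its log2 fold change was 3.11 (SE 0.34, edgeR adjusted p = 8.3e-08), and that of the large ribosomal RNA mt-Rnr2 was 3.42 (SE 0.40, adjusted p = 6.1e-07). The cytochrome b message mt-Cytb was at 12053, 10227, 10701 and 13961 CPM in water and 13646, 24752, 23921 and 39430 CPM in the combination. Combination 1 lay within the water range and the other 3 above it, and the log2 fold change was 1.12 (SE 0.23, edgeR adjusted p = 0.01). The complex I subunit mt-Nd4, at 7433, 6403, 6703 and 9702 CPM in water and 10025, 13085, 16156 and 27811 CPM in the combination, rose by 1.15 on the log2 scale (SE 0.25, edgeR adjusted p = 0.015).

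Complex IV subunit 2, mt-Co2, was at 63.1, 67.6, 63.9 and 72.3 CPM in water and at 52.6, 661, 308 and 260 CPM in the combination. Combination 1 was the lowest of the 8 libraries and the other 3 were the highest, and the log2 fold change was 2.26 (SE 0.44, edgeR adjusted p = 0.0047). The 13 subunits had a median log2 fold change of 1.15, and mt-Nd3, mt-Co1, mt-Co3 and mt-Atp8 did not pass (0.67, 0.50, 0.53 and 1.36). The 9 that rose became 1 without water 3 or water 4, 2 without combination 6, 4 without combination 3 and 2 with the replicate block. The 15 mitochondrial tRNAs had a median of 0.69, with 8 higher and 0 lower at an unadjusted p under 0.05. Of all genes tested, 6.05% were higher and 4.9% lower at that threshold. Of 24 nuclear-encoded respiratory chain subunits, 0 passed (1 higher and 2 lower at an unadjusted p under 0.05), and their median was -0.14. The calls for mt-Cytb and mt-Nd4 did not pass without water 3, water 4 or combination 6 (highest adjusted p 0.114 and 0.169), and that for mt-Co2 did not pass without combination 3 (0.062). Mean mt-Cytb in ambulatory mice was 21889 ± 1250 CPM (SD, n = 4), nearer to the combination (25438 ± 10608) than to water (11735 ± 1673).

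Ubb encodes a polyubiquitin precursor, the source of free ubiquitin for tagging proteins (chr11:62551171-62553213, plus strand, GRCm38). It was at 172, 212, 213 and 171 CPM in water libraries 1, 3, 4 and 5 and at 95.1, 91.0, 133 and 110 CPM in combination libraries 1, 3, 4 and 6. The groups did not overlap. The log2 fold change was -0.84 (SE 0.12), a 1.79-fold decrease with an edgeR adjusted p of 2.8e-05, and it passed without each of the 8 libraries. In the fit of the 8 libraries alone the adjusted p was 0.525. Means in metformin alone, leucine alone and ambulatory mice were 119 ± 13.9, 126 ± 15.7 and 150 ± 7.15 CPM (SD, n = 4 each).

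Ppp1r3c encodes a subunit that brings protein phosphatase 1 to glycogen and so favours glycogen synthesis (chr19:36731731-36736653, minus strand). Its abundance was 243, 309, 296 and 287 CPM in water and 124, 83.5, 149 and 151 CPM in the combination. No combination library came near the water libraries, and the fold decrease was 2.24 (log2 fold change -1.16, SE 0.23, edgeR adjusted p = 0.0066). Metformin alone stood at 224 ± 101 CPM, leucine alone at 241 ± 58.8 and ambulatory mice at 232 ± 53.3 (SD, n = 4 each), all with means between those of the 2 groups compared. The direct tests of the combination against metformin alone and against leucine alone gave log2 fold changes of -0.82 and -0.93, with edgeR adjusted p values of 0.28 and 0.11.

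Lrrc30, a leucine-rich repeat protein gene, was at 46.7, 66.6, 59.3 and 58.5 CPM in water and 40.01, 12.3, 28.1 and 20.4 CPM in the combination. The groups did not overlap, although combination 1 was close to water 1. Its log2 fold change was -1.20 (SE 0.22, edgeR adjusted p = 0.0022). Asb2, the substrate-recognition subunit of a muscle ubiquitin ligase, was at 485, 528, 499 and 513 CPM in water and 446, 158, 248 and 216 CPM in the combination, where combination 1 lay just under the water libraries and the other 3 far below. The log2 fold change was -0.92 (SE 0.20, edgeR adjusted p = 0.017), and it did not pass without water 3, water 4, combination 3 or combination 6 (highest adjusted p 0.097). Without combination 1 the log2 fold change was -1.29.

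**Figure D3:**
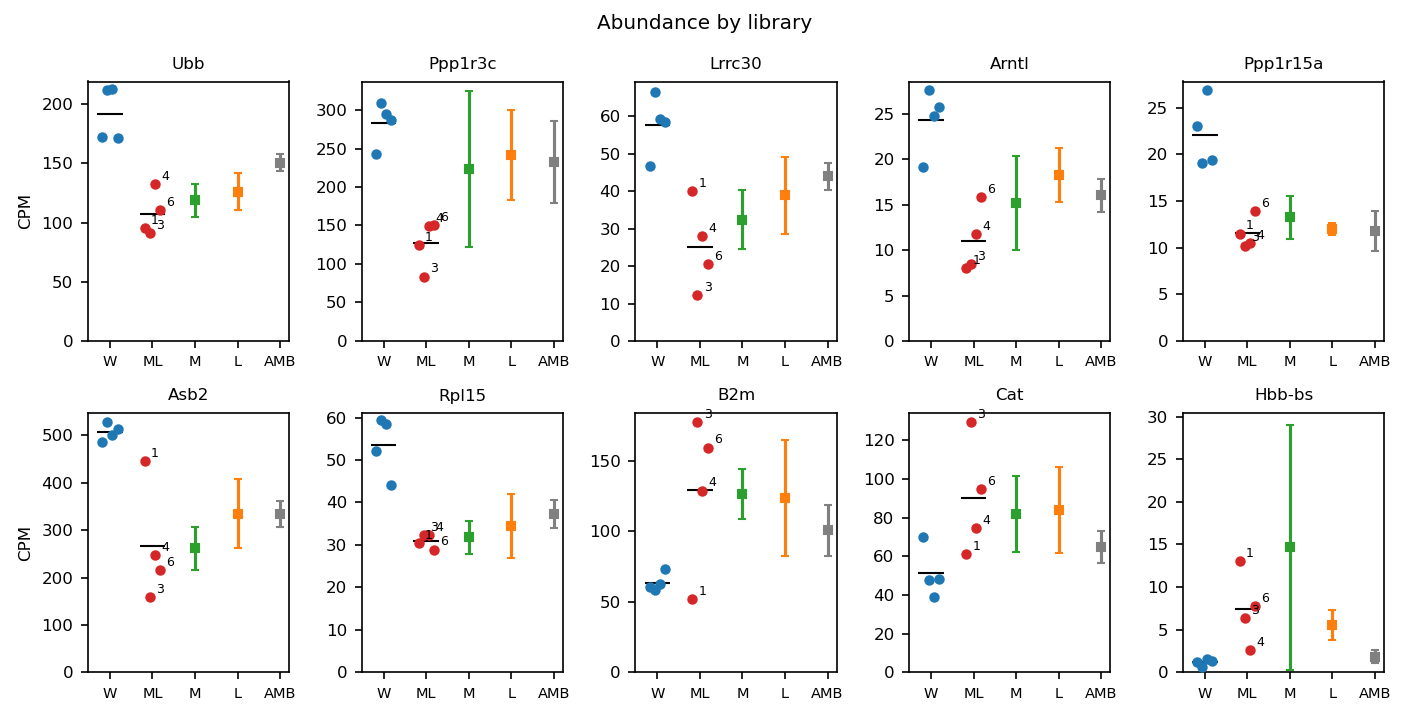
Abundance in CPM for 10 genes, with a point for each 14 d water (W) and combination (ML, labelled by replicate) library and a line at the group mean; squares and bars are mean ± SD of 4 libraries for metformin (M), leucine (L) and ambulatory water (AMB). For Ubb, Ppp1r3c and Rpl15 no combination library reaches the water libraries, while for Asb2 and B2m combination 1 lies beside them.

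Ppp1r15a (GADD34) directs a phosphatase to the initiation factor eIF2 and so reverses the stress-induced block on translation. Its abundance was 23.05, 19.1, 26.96 and 19.4 CPM in water and 11.5, 10.2, 10.5 and 13.9 CPM in the combination. The groups did not overlap, and the fold decrease was 1.92 (log2 fold change -0.94, SE 0.18, edgeR adjusted p = 0.0037), which passed without each of the 8 libraries but not in the fit of those 8 alone (adjusted p = 0.334). Tulp2 overlaps it on the opposite strand. Of 17 measured genes of the ATF4 and unfolded protein response, Ppp1r15a was the 1 that passed, and the list median was -0.09. Atf4 itself was at 56.4, 64.9, 68.9 and 60.0 CPM in water and 62.0, 45.4, 36.01 and 41.7 CPM in the combination, where combination 1 lay within the water range (log2 fold change -0.43, edgeR adjusted p = 0.11).

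Arntl was at 19.1, 27.6, 24.8 and 25.8 CPM in water and 7.98, 8.43, 11.7 and 15.9 CPM in the combination. The groups did not overlap, and the fold decrease was 2.22 (log2 fold change -1.15, SE 0.26, edgeR adjusted p = 0.025). It did not pass without water 3, water 4 or combination 3 (highest adjusted p 0.117), and Gm45355 overlaps it on the opposite strand. Arntl was the 1 of 19 clock genes that passed, and their median was -0.07. Npas2, which can replace CLOCK as the partner of BMAL1, stood at -1.38 on the log2 scale (edgeR adjusted p = 0.11), the repressor Nfil3 at -0.88 (0.18) and the period gene Per3 at 0.48 (0.16). The labels do not give the hour of tissue collection, with which clock transcripts cycle.

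Thtpa, a thiamine triphosphatase gene, and Phpt1, a histidine phosphatase gene, fell by 0.87 and 0.86 on the log2 scale (edgeR adjusted p = 0.019 and 0.049), both at under 7 CPM. Phpt1 did not pass without water 1, 3 or 4 or combination 3 or 6, and Thtpa without water 1, 3 or 4 or combination 6. Other genes that fell included Psmb3, a proteasome core subunit (log2 fold change -0.49), Ufc1, the conjugating enzyme for the ubiquitin-like UFM1 (-0.69), and Timm23 and Pam16 of the machinery that imports proteins into mitochondria (-0.47 and -0.86). These 4 were chosen after their values were seen. The proteasome subunit Psmb4 had a log2 fold change of -0.61 and missed the threshold (adjusted p = 0.052).

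Genes that rose were fewer among annotated protein-coding genes. B2m, the light chain of class I antigen-presenting molecules, was at 60.5, 58.1, 63.0 and 73.2 CPM in water and 51.7, 178, 129 and 159 CPM in the combination. Combination 1 lay below all water libraries and the other 3 well above them. The log2 fold change was 1.02 (SE 0.24, edgeR adjusted p = 0.029), and the call did not hold without water 1, 3 or 4 or combination 3 or 6 (highest adjusted p 0.157). Cat, which encodes the peroxisomal enzyme catalase, was at 70.2, 47.6, 39.2 and 48.2 CPM in water and 61.1, 130, 74.7 and 94.98 CPM in the combination. The groups overlapped at combination 1, and the log2 fold change was 0.81 (SE 0.20, edgeR adjusted p = 0.037), lost without water 3, 4 or 5 or combination 3 or 6. Prdx1, a peroxiredoxin on the same list of glutathione and NRF2 target genes, fell by 0.45 on the log2 scale (adjusted p = 0.037), and the other 15 of its 17 members did not pass.

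B2m was the 1 of 25 interferon response and antigen presentation genes that passed. The log2 fold changes of all 25 were above 0, with a median of 0.56, and 11 were higher at an unadjusted p under 0.05, where 6.05% of all genes were. Oasl2, which an interferon signal induces, was at 5.43, 1.76, 3.59 and 3.13 CPM in water and 4.07, 17.2, 4.66 and 8.68 CPM in the combination, so that the groups overlapped (log2 fold change 1.32, adjusted p = 0.22). Markers of macrophages had a median of 0.46 with 0 of 16 passing and 0 at an unadjusted p under 0.05. Their summed abundance was 39.5 to 76.5 CPM in water and 44.6 to 84.6 in the combination. In bulk tissue, more cells of a type and more RNA per cell cannot be told apart.

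Tnfsf10 (TRAIL), a death-receptor ligand, was at 6.17, 5.38, 6.47 and 5.03 CPM in water and 10.3, 13.2, 9.81 and 8.35 CPM in the combination, without overlap (log2 fold change 0.86, SE 0.21, edgeR adjusted p = 0.037). Cradd, an adaptor of the caspase-2 complex, rose by 0.63 and Flrt2, a cell adhesion and guidance protein gene, by 0.75 on the log2 scale (both adjusted p near the threshold, 0.039 and 0.036). Mlip, which encodes a lamin-interacting protein of muscle, rose by 0.38 from 90.9 to 104 CPM in water to 111 to 144 CPM in the combination. Smim11, a small membrane protein gene, rose by 1.26 and Baz1a, a chromatin remodelling subunit gene, by 0.94. Each of these 6 calls did not pass without at least 1 library, and that of Smim11 without combination 6 alone.

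Hbb-bs, an adult beta-globin gene, was at 1.19, 0.685, 1.53 and 1.39 CPM in water and 13.1, 6.36, 2.57 and 7.78 CPM in the combination. The groups did not overlap, and the log2 fold change was 2.64 (SE 0.65, edgeR adjusted p = 0.039). It was the 1 of 6 red blood cell transcripts that passed, and 4 were higher at an unadjusted p under 0.05, where 6.05% of all genes were. Their summed abundance was 2.69 to 4.60 CPM in water, 5.41 to 23.1 in the combination and 2.85 to 6.24 in ambulatory mice. The part that blood in the tissue has in this difference was not tested. The call did not pass without 6 of the 8 libraries in turn, the exceptions being combination 1 and combination 4.

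Ribosomal and short noncoding RNA genes made up 18 of the 119 calls, from 194 tested (17 rose and 1 fell). That is 9.28% of those tested, where 0.714% of all genes passed. n-R5-8s1 had the smallest p, with 0.796, 0.783, 0.294 and 0.998 CPM in water and 16.6, 31.2, 16.9 and 33.03 CPM in the combination (log2 fold change 5.04, SE 0.49, edgeR adjusted p = 8.6e-09). The groups were far apart, and the call held without each of the 8 libraries. The small Cajal body RNA Scarna10 fell, from 24.1, 20.9, 22.2 and 10.9 CPM in water to 6.10, 7.06, 7.82 and 4.63 CPM in the combination (log2 fold change -1.60, SE 0.29, edgeR adjusted p = 0.0021). Gm23935 rested on a single library, with 57.3 to 163 CPM in water, 7026 CPM in combination 1 and 46.6 to 156 CPM in the other 3. Its log2 fold change was 3.98 (SE 0.82, adjusted p = 0.01), and -0.33 without combination 1 (adjusted p = 0.63). The vault RNA Vaultrc5 had the same pattern, at 47.4 CPM in combination 1 and 0.429 to 1.41 CPM in the other 7 libraries. The rRNA gene CT010467.1 was at 2932 to 5064 CPM in water and at 25069, 7900, 4873 and 36594 CPM in combination libraries 1, 3, 4 and 6.

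Lists of nutrient and energy sensing genes held 0 calls. Of 29 genes of leucine sensing and mTORC1 control 0 passed, with a median log2 fold change of -0.08. At an unadjusted p under 0.05, 1 was higher and 4 lower. Of 18 genes for AMPK subunits, AMPK kinases and mitochondrial regulators 0 passed (1 higher and 1 lower unadjusted), with a median of 0.00. Prkaa2, the main catalytic AMPK subunit of muscle, was at 401 to 515 CPM in water and 425 to 568 CPM in the combination. Of 21 genes for the breakdown of branched-chain amino acids, the route by which leucine is used as fuel, 0 passed (1 and 1 unadjusted), with a median of -0.07. Of 16 amino acid transporters 0 passed (1 and 1 unadjusted). These genes are measured here as messages, and leucine and metformin act on these proteins largely after translation.

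Glycolysis and glycogen genes leaned low: 0 of 20 had a log2 fold change above 0, their median was -0.29, and 8 were lower at an unadjusted p under 0.05, where 4.9% of all genes were. Ppp1r3c was the 1 that passed. Gapdh was at 3208, 3860, 4068 and 3096 CPM in water and 3947, 1763, 2666 and 2084 CPM in the combination, so that combination 1 lay within the water range and the other 3 below it (log2 fold change -0.44, adjusted p = 0.37). Of 25 atrophy ligase, FoxO, autophagy and proteasome genes 0 passed, 8 were lower at an unadjusted p under 0.05, and the median was -0.13. The muscle ligases Trim63 (MuRF1) and Fbxo32 (atrogin-1) had log2 fold changes of -0.53 and -0.50 (adjusted p = 0.43 and 0.40). Trim63 was at 167, 173, 186 and 160 CPM in water and 108, 84.8, 132 and 149 CPM in the combination, all 4 below the water libraries.

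Satellite cell, matrix and fibre-type genes did not separate the groups. Pax7, the marker of muscle stem cells, was at 2.49, 2.54, 2.35 and 2.39 CPM in water and 4.12, 1.84, 1.98 and 1.80 CPM in the combination, with 1 library above the water range and 3 below it, and a log2 fold change of -0.00. Myod1, a factor of myogenic commitment, was at 11.996 to 13.7 CPM in water and 22.3, 4.10, 7.88 and 5.91 CPM in the combination, split in the same way (log2 fold change -0.36, adjusted p = 0.68). Of 17 satellite cell and myogenic genes 0 passed (1 higher and 2 lower unadjusted), and of 21 fibrillar collagens and matrix proteins 0 passed (1 and 1 unadjusted). Col1a1 was at 95.8, 22.5, 23.4 and 41.9 CPM in water and 41.003, 56.9, 36.3 and 37.015 CPM in the combination, within the water range. The slow myosin Myh7 ranged from 0.881 to 378 CPM in water and from 30.9 to 984 CPM in the combination (log2 fold change 1.20, SE 1.11, adjusted p = 0.74), so that the groups overlapped.

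**Figure D4:**
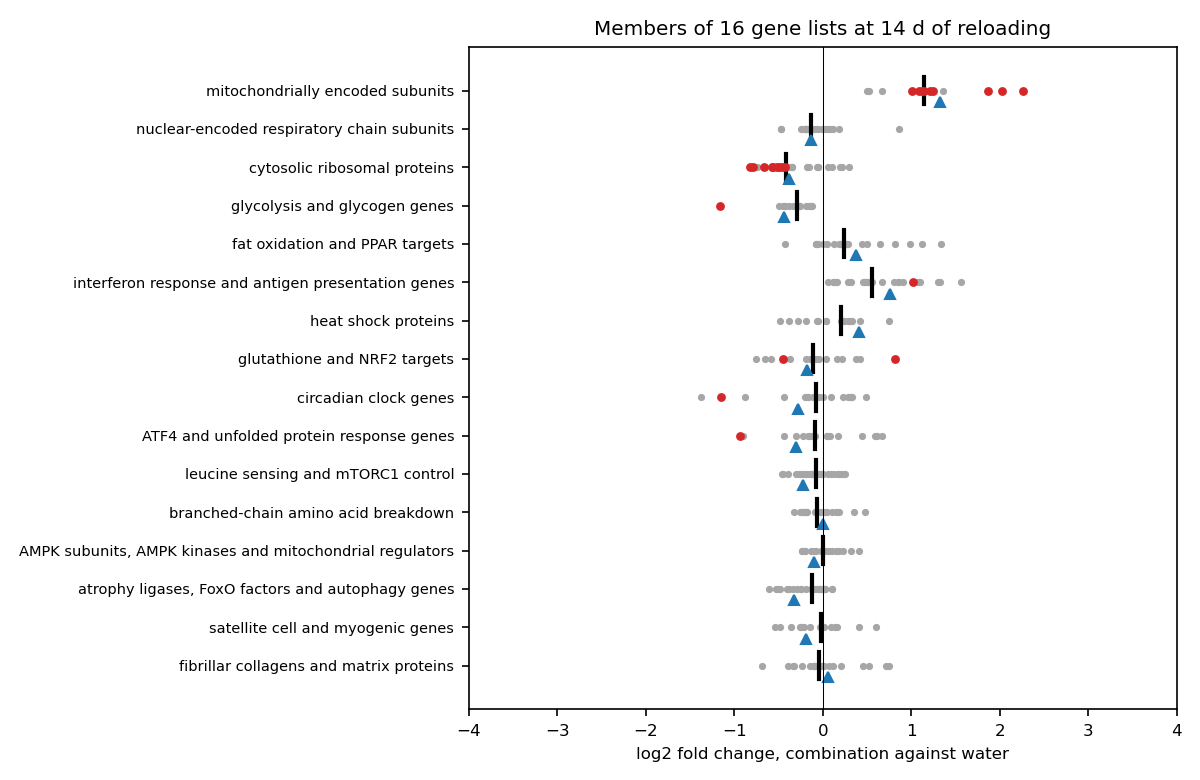
Log2 fold changes of the combination against water (x) for the tested members of 16 gene lists; red points passed at an adjusted p under 0.05, black bars are list medians, and blue triangles are the medians without combination 1. Mitochondrially encoded subunits (median 1.15) and ribosomal proteins (-0.41 for the 28 on the list) hold most red points; 1 satellite cell gene, Mymk, lies beyond the axis and did not pass.

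Leaving out combination 1 changed the extent of the result more than leaving out any other library. Without it 2500 of 16958 genes passed (14.7%), 981 higher (5.78%) and 1519 lower (8.96%). Of the 119 genes above, 106 passed again and 3 changed sign. Of 20 glycolysis and glycogen genes 9 were then lower and 0 higher, among them Aldoa (log2 fold change -0.71, adjusted p = 0.00039), Pygm (-0.69, 0.0017) and Pfkm (-0.55, 0.0035). Of 29 mTORC1 control genes 6 were lower and 0 higher, among them the translation repressor Eif4ebp1 (-0.96, 0.00011) and the mTORC1 inhibitor Akt1s1 (-0.78, 0.00013).
Of 25 atrophy, FoxO and autophagy genes 7 were lower, among them the ubiquitin ligase subunit Fbxo31 (-0.89, 4.2e-05) and the glucocorticoid-responsive factor Klf15 (-0.88, 0.00052). Heat shock protein genes went the other way, with 8 of 17 higher and Hspb8 lower. Among interferon and antigen presentation genes 6 of 25 were higher and 0 lower. Satellite cell genes then had 4 of 17 lower, with Myod1 at -1.12 (adjusted p = 0.0006), and the insulin-responsive glucose transporter Slc2a4 was at -0.96 (4.2e-05). These p-values come from the same edgeR test with 3 combination libraries.

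The 10 highest and 10 lowest annotated nuclear protein-coding genes in the fit without combination 1 were taken after it was seen that this library stood apart. The rule was that used for all 8 libraries, except that noncoding and mitochondrially encoded genes were left out. Hr, which encodes the hairless corepressor, was at 52.0 ± 5.96 CPM in water (SD, n = 4) and 15.7 ± 1.82 in combination libraries 3, 4 and 6 (SD, n = 3), and at 76.7 CPM in combination 1. Slc16a3, the MCT4 transporter that exports lactate from glycolytic fibres, was at 109 ± 27.7 CPM in water, 37.9 ± 8.06 in the 3 libraries and 191 CPM in combination 1. Ndufaf2, an assembly factor of complex I, was at 1.76 ± 0.134 CPM in water, 4.69 ± 1.56 in the 3 libraries and 0.645 CPM in combination 1. For 13 of the 20 genes combination 1 lay beyond the water libraries on the side opposite to the other 3 combination libraries. For 5 it lay beyond them on the same side, and for 2 within the water range.

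**Figure D5:**
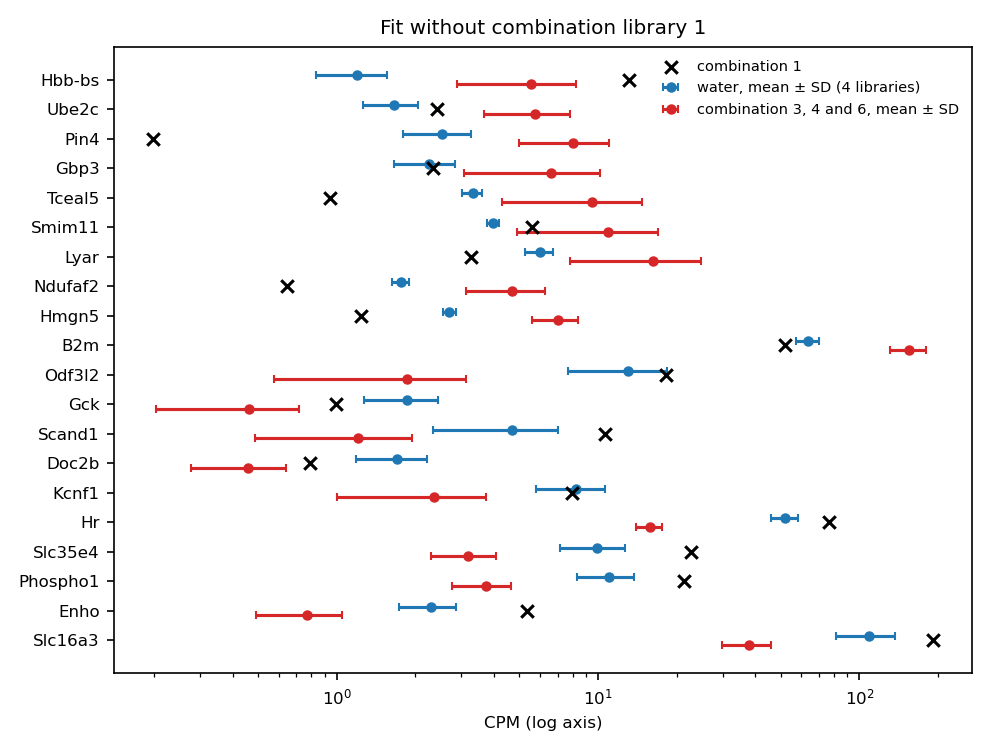
CPM on a log axis for the 10 highest and 10 lowest nuclear protein-coding genes in the fit that leaves out combination 1. Circles and bars are mean ± SD of the 4 water libraries (blue) and of combination libraries 3, 4 and 6 (red). Crosses are combination 1. For Slc16a3 the cross is at 191 CPM, above water (109 ± 27.7), while the other 3 combination libraries average 37.9.

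Metformin alone and leucine alone were compared with the same 4 water libraries, so their differences from water are not independent of those above and are given side by side only. Against water, 853 genes passed for metformin (5.12%), 49 for leucine (0.294%) and 119 for the combination. The log2 fold changes of Ubb were -0.69 for metformin, -0.61 for leucine and -0.84 for the combination. Those of Rpl15 were -0.75, -0.63 and -0.79 in the same order, and those of mt-Cytb 1.29, 1.10 and 1.12. Arntl stood at -0.68, -0.42 and -1.15, and Ppp1r3c at -0.34, -0.23 and -1.16.

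The direct tests asked whether the combination differed from either agent alone. Against metformin alone 4 of 16668 genes passed (0.024%), all higher: Vaultrc5, Gm23935, Gm15564 and CT010467.1, noncoding transcripts that stand highest in combination 1, or in combination 6 for CT010467.1. At an unadjusted p under 0.05, 1613 genes differed (9.68%), 1266 of them higher. Against leucine alone 0 genes (0%) passed in edgeR, with 1174 at an unadjusted p under 0.05 (7.04%) and 23 in DESeq2. A p that misses the threshold does not show that the treatments act alike: the median standard error of a log2 fold change was 0.23 in both tests.

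Whether the difference from water was the same at 7 d was tested as an interaction, for which 321 genes passed (1.93%), 128 higher (0.768%) and 193 lower (1.16%) at 14 d than at 7 d. At 7 d itself 1 gene passed between the combination and water (0.006%). Rpl15 was at 46.6 ± 1.64 CPM in water and 62.8 ± 8.50 in the combination at 7 d (SD, n = 4 each), and at 53.5 ± 7.08 and 31.01 ± 1.67 at 14 d, an interaction of -1.22 on the log2 scale (edgeR adjusted p = 0.00013). The combination had the higher mean at 7 d and the lower at 14 d. mt-Rnr1 went the opposite way, with 8711 ± 1221 and 4861 ± 1177 CPM at 7 d and 4202 ± 567 and 36162 ± 30705 at 14 d (interaction 3.95, adjusted p = 4.9e-07). For n-R5-8s1 the means were 4.99 ± 2.22 and 1.76 ± 1.26 CPM at 7 d and 0.718 ± 0.299 and 24.4 ± 8.90 at 14 d, so the composition measure itself has this pattern.

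Mthfd2, the mitochondrial folate enzyme and an ATF4 target, was at 1.74 ± 0.441 CPM in water and 2.98 ± 0.557 in the combination at 7 d, and at 2.93 ± 0.565 and 1.56 ± 0.387 at 14 d (interaction -1.67, edgeR adjusted p = 0.027). Lsmem2, a leucine-rich single-pass membrane protein gene, gave an interaction of -1.56 (adjusted p = 0.0031) and Otub2, a deubiquitinase gene, -1.50 (0.026). Atf4 gave -0.90 (adjusted p = 0.0054), with 38.9 ± 3.56 and 54.0 ± 11.01 CPM at 7 d and 62.6 ± 5.47 and 46.3 ± 11.2 at 14 d. In the interaction, Ubb (-1.04), Asb2 (-1.50), Ppp1r3c (-1.42) and B2m (1.57) also passed, and Arntl (-1.27, adjusted p = 0.063) and Ppp1r15a (-0.81, adjusted p = 0.08) did not.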

How the data were processed

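Total RNA from gastrocnemius was depleted of ribosomal RNA, made into stranded libraries and sequenced in 150-base pairs, per the labels' protocols. The authors deposited 1 table of raw read counts for 55487 Ensembl genes in 52 libraries. The submitters' processing notes name STAR 2.7.3a, featureCounts 1.6.3, DESeq2 1.30.0 and the GRCm38 build. The strand setting and annotation release are not given in the sources used here. Symbols, gene types and coordinates came from GENCODE vM21 (55227 IDs matched), and promoter sequences from RefSeq (GRCm38.p6).

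The deposited counts were filtered with filterByExpr (minimum count 10), which left 16668 genes, and scaled by TMM. They were fitted with edgeR 4.0.16 (R 4.3.3, robust quasi-likelihood) with 1 mean for each of 13 groups over all 52 libraries, with 39 residual degrees of freedom. Benjamini-Hochberg adjustment ran over every gene tested, at a threshold of 0.05. CPM are TMM-scaled. A standard error is the size of the log2 fold change over the square root of F. Alternatives were RLE factors, no filter, DESeq2 1.42.0, limma 3.58.1 voom with quality weights, fewer groups or libraries, a composition covariate, fewer gene classes and the replicate number as a block. The scripts were tested on simulated data.

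Genes were named by rule, with exceptions given below. In each direction, the rule took the 10 annotated genes furthest from 0 among those that passed, reached an average log2 CPM of 1 and did not overlap between groups (9 were found among those that rose). The same rule took 3 in each direction for the other tests. From each of 39 gene lists (650 entries), up to 2 changed members with the smallest p were taken in each direction. For these list members no limit was set on overlap between groups or on abundance. Other genes given with values were picked by hand under none of these rules. Among them are Npas2, Nfil3, Per3, Oasl2, Gapdh, Psmb4, Vaultrc5 and CT010467.1. In the fit without combination 1, Aldoa, Pygm, Pfkm, Akt1s1, Fbxo31, Klf15 and Slc2a4 were picked in the same way. Hand-picked genes do not stand for the rest of their lists. A set of 42 genes, 32 of them protein-coding and 10 noncoding, was looked at whatever its result. Groups, members and lists were chosen with earlier results of these data known, and they support nothing by themselves.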

Additional observations from a re-analysis of the deposited data

Results flagged for a closer look

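Within a group of 4 libraries, a value was picked out when its gap to the nearest other value took up most of the group's range (Dixon's test at the 95% level), which chance does in about 1 of 20 groups. This was so in 16 of 152 groups of values checked, and 7 of the 16 were combination 1. In that library Gm23935 was at 7026 CPM (nearest other 156), Rpph1 at 736 (147), Bckdk at 91.6 (45.2), Ddit4 at 4.86 (1.93), Slc7a5 at 4.17 (1.02), Pax7 at 4.12 (1.98) and Rmrp at 2.38 (0.471). In combination 3, Pdk4 was at 1686 CPM and Col3a1 at 87.8, both high, and Otub2 at 3.30, low. In combination 4, Myog was at 2.47 CPM. Among the water libraries, Ppargc1a was at 131 CPM in water 1, Mthfd2 at 3.77 in water 4, and Rn7sk at 4013, Smim11 at 4.30 and Alb at 77 in water 5.

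The difference between the combination and water was itself different at 14 d and 7 d, by the edgeR interaction test at an adjusted p under 0.05, for 28 of the 70 named genes. Over all genes tested 1.93% passed. Many of the named genes were picked for their difference at 14 d in the same libraries, and some for the interaction itself. The share among them is raised by that choice and supports nothing by itself. On the log2 scale it was more positive at 14 d for n-R5-8s1 (6.54), mt-Rnr2 (4.36), mt-Rnr1 (3.95), Hbb-bs (3.84), mt-Co2 (2.88), mt-Nd4l (2.697), mt-Cytb (1.84), mt-Nd4 (1.84), Baz1a (1.59), B2m (1.57), Smim11 (1.38), Cat (1.09), Cradd (0.89) and Mlip (0.57). It was more negative for Scarna10 (-2.51), Mthfd2 (-1.67), Lsmem2 (-1.56), Otub2 (-1.50), Asb2 (-1.50), Ppp1r3c (-1.42), Rplp2 (-1.28), Rpl15 (-1.22), Phpt1 (-1.17), Rps21 (-1.15), Lrrc30 (-1.11), Ubb (-1.04), Thtpa (-1.03) and Atf4 (-0.90).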

How the results depend on the processing

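For the combination against water, where 119 genes passed, RLE factors gave 117, no filter 59, DESeq2 202, voom with quality weights 3047, the 5.8S covariate 0 (880 at an unadjusted p under 0.05), fitting the compared groups alone 2, nuclear protein-coding genes only 32, leaving out combination 1 and 6 together 1176, and leaving out libraries above 16 CPM of Alb 107. Without each library in turn the count ran from 29 (without water 4) to 2500 (without combination 1), with 30 without water 3. With nuclear protein-coding genes only, 5 rose and 27 fell, and without the Alb libraries 41.1% of calls were higher against 52.1%. Same-numbered water and combination libraries had correlations of their deviations of 0.0574, -0.289 and 0.00882, and differently numbered ones ran from -0.233 to 0.316. These values show no pairing by replicate number, but so few pairs cannot exclude it. With the replicate block the counts were 47 against water, 0 against metformin, 0 against leucine and 419 for the interaction. Against metformin (4 genes), no filter gave 1, DESeq2 8, the 5.8S covariate 2, and voom, only the groups compared, nuclear protein-coding genes, leaving out combination 1 and 6 and leaving out the Alb libraries 0 each, with 0 to 146 without each library. Against leucine (0 genes), DESeq2 gave 23 and leaving out the Alb libraries 1, with 0 to 73 without each library. For the interaction (321 genes), no filter gave 120, DESeq2 531, voom 4200, only the groups compared 32, the 5.8S covariate 0, and leaving out combination 1 and 6 2364, with 77 to 3339 without each library. For the 70 named genes, a change of direction was counted where the gene passed in the main fit or in the alternative. By that count directions changed for Smim11 (-0.16 with the 5.8S covariate), Gm23935 (-0.70 with voom, -0.92 without combination 1 and 6, and -0.33 without combination 1, with a highest value of 4.37 without combination 4), Scarna2 (-1.04 with voom) and Scarna6 (-1.92 with voom). Of the 119 calls, 7 changed sign with the 5.8S covariate and 6 with voom. Without combination 1, 3 changed sign, and 3 did so without combination 1 and 6 together. The cause of these changes was not tested. The median standard error was 0.23, and 0.32 for the interaction. The smallest log2 fold change that passed was 0.355 in size and many larger ones did not pass, so that differences of that order were often not detectable with 4 libraries a group.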

Other observations

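Lars2, the mitochondrial leucyl-tRNA synthetase gene, passed against water, and it was chosen here after its values were seen. It was at 354, 260, 313 and 191 CPM in water and 984, 368, 240 and 1018 CPM in combination libraries 1, 3, 4 and 6 (log2 fold change 1.22, SE 0.30, edgeR adjusted p = 0.039). Combination 4 lay within the water range and combination 3 just above it. Libraries 1 and 6, where Lars2 was high, are those in which nuclear ribosomal RNA genes took 2.77 and 2.60% of counts, against 0.810 and 0.444% in libraries 3 and 4 and 0.297 to 0.567% in water. The part of that in the Lars2 values was not tested. Lars, its cytosolic counterpart, stood at -0.27 on the log2 scale (edgeR adjusted p = 0.32).

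Of 624 tested pseudogenes 9 rose and 1 fell (1.6% passed), where 0.714% of all genes tested passed. Gm28439 was at 83.5 to 162 CPM in water and 200 to 511 CPM in the combination, and Gm13341 at 15.6 to 18.6 and 31.5 to 53.015 CPM.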
